A study of Homo sapiens with 6 samples.

Results

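The D-type cyclins, their kinases CDK4 and CDK6, and the INK4 and CIP/KIP inhibitors of cyclin-dependent kinases were followed in Nthy-ori 3-1 cells. The genes were found by symbol, from a list of 10 that was drawn up with earlier results of these data known. Of the 10, 8 were matched to an Ensembl identifier among the 16574 genes analysed, namely CCND1, CCND2, CCND3, CDK4, CDK6, CDKN2C, CDKN1A and CDKN1B. CDKN2A and CDKN2B had no match among these genes and could not be analysed here, so the INK4 inhibitors are represented by 1 of the 3 listed. Of the 8 genes with values, 7 passed the filter on low values, and CCND2 did not.

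RNA was sequenced from 6 libraries of this line, 3 kept for 27 days with 2.5 µM decabromodiphenyl ether (BDE209) and 3 kept for 27 days with the same volume of the solvent dimethyl sulfoxide (DMSO). BDE209 is a brominated flame retardant. Nthy-ori 3-1 is an immortalised line from human thyroid follicular epithelium, labelled wild type. It carries the SV40 large T antigen, a viral protein that binds RB, so both groups share this state. The series title concerns proliferation in papillary thyroid carcinoma under long exposure, the question these cell cycle genes bear on, and nothing in the labels ties the replicates to separate cultures. The p-values therefore measure the spread among these libraries alone, and that spread may be technical. In such bulk RNA, fewer cells of a state and less RNA per cell cannot be told apart.

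D-type cyclins are made when growth factor signals reach the cell. They bind and activate CDK4 and CDK6, which phosphorylate RB and so release the E2F factors that start DNA synthesis. INK4 proteins bind CDK4 and CDK6 and keep the cyclins off. CIP/KIP proteins inhibit cyclin-CDK2 complexes and also help to assemble cyclin D with its kinase. In cells where large T holds RB, progress into S phase depends less on cyclin D and its kinases.

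RefSeq windows of the 250 bases before annotated starts (GRCh38.p14) were found for 8 of the 10 listed genes, and CCND1 and CCND2 had none. The 3 below are shown because they belong to the more abundant kinase gene, CDK4, and to 2 inhibitors. Of these, CDKN2C is the only INK4 inhibitor among the 10 listed genes that has values, and CDKN1A is the best known CIP/KIP inhibitor. They are written 5′ to 3′ on the strand of the gene. In CDK4 (chr12:57752311-57752560, minus strand) capitals mark CACGTG, the E-box read by MYC family factors, which is its own reverse complement. In CDKN2C (chr1:50968456-50968705, plus strand, the one of its 3 annotated starts with the most GC boxes) and CDKN1A (chr6:36678464-36678713, plus strand) capitals mark GGGCGG, the GC box read by SP1 family factors, searched on both strands with overlapping matches counted apart.
CDK4: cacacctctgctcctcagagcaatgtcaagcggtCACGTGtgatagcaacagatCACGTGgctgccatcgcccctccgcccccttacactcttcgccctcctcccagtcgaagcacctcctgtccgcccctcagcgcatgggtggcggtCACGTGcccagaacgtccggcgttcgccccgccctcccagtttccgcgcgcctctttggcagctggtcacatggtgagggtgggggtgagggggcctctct
CDKN2C: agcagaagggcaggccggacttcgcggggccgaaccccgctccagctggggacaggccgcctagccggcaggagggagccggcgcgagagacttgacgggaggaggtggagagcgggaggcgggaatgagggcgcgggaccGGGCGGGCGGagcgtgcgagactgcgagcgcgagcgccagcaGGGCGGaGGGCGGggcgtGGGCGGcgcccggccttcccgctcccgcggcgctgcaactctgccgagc
CDKN1A: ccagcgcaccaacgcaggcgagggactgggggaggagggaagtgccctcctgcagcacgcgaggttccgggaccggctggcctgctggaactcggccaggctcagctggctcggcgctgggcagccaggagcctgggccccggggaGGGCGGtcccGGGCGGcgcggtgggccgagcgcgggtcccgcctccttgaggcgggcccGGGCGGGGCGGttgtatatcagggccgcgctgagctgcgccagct
The CDK4 window held 3 E-boxes, beginning 216, 196 and 101 bases before the start. Of the 35116 RefSeq windows of this length, 6.35% held at least 1 E-box and 0.0797% held 3 or more. The E-box was the pattern marked for CDK4 alone, out of several searched, so this share does not single out its window. The CDK4 window also held 3 GC boxes, not marked above, where 13.9% of all windows held 3 or more. The other windows of CDKN2C held 1 E-box each, and no other listed gene had one. The CDKN2C window shown held 5 GC boxes, and its other windows 0 and 1. The CDKN1A window held 4. Over the 14 windows of the listed genes, 10 held at least 1 GC box, 3 held 4 or more (1 of CCND3, with 5, beside those shown) and 4 held none, where 42.6% of all windows held at least 1 and 7.63% held 4 or more. The CDKN2C window was chosen for its count, so these shares do not single it out. The E2F pattern TTTNNCGC, searched on both strands, had no match in the 14 windows of the listed genes and was found in 5.92% of all windows. The cyclic AMP element TGACGTCA, its own reverse complement, also had none there, against 1.65% of all windows. A match is a description of the letters and not a measured site.

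Levels are given in FPKM, fragments scaled to transcript length and library total, which allows comparison between genes. The summed FPKM of a library lay between 567810 and 829739, highest in both replicate 2 libraries, which stood apart from the other 4 in the levels of many genes, and 14630 to 14914 genes were above 0. Depth in fragments is not known. The spacing of low values put DMSO replicate 3 at 0.63 to 0.64 and BDE209 replicate 3 at 0.78 to 0.81 of the depth of DMSO replicate 1, and the other libraries at 0.97 to 1.04. Of 9 thyroid follicular markers, 7 were under 1 FPKM in every library, including TG, TSHR and PAX8, while HHEX read 4.83 to 7.62, so the label of follicular epithelium is not borne out by the genes of thyroid hormone synthesis. The follicular sum lay at 6.45 to 8.49 FPKM with DMSO and 7.26 to 9.65 with BDE209. The epithelial sum of 6 ranged from 150.5 to 178.7 and from 118.8 to 155.0, with CDH1 at 0 in 5 libraries, and the mesenchymal sum of 6 from 9962 to 14610 and from 9175 to 12270. Of 4 endothelial markers 3 were under 1 FPKM in every library, and the leukocyte gene PTPRC read at most 0.02. The endothelial sum lay at 2.22 to 2.47 FPKM with DMSO and, without overlap, 2.66 to 3.36 with BDE209. Most of it was KDR, at 1.88 to 2.14 and 2.16 to 2.81. Among the other markers the groups did not overlap for PECAM1, higher with BDE209, and for VIM, KRT7 and TSHR, lower. PECAM1 read 0.25 to 0.30 FPKM with DMSO and 0.44 to 0.48 with BDE209. TSHR read only 0.07 to 0.08 and 0.03 to 0.05. Of all genes tested, 5.22% had groups that did not overlap. PECAM1 and TSHR lay under the filter, so that share does not cover them. The immune sum, with values for 2 of 4 markers and nearly all of it CD68, lay at 58.05 to 73.64 and 48.18 to 67.67. The part of these markers in the results was not tested.

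CCND1 stood highest of the 8 genes, at a mean of 239 FPKM over the 6 libraries (rank 372 of 16574 genes), followed by CDK4 at 116, CDKN2C at 74.1, CCND3 at 28.3, CDKN1B at 20.9, CDKN1A at 8.18, CDK6 at 6.998 and CCND2 at 0.0233. The ranges over the libraries were separate for each pair of neighbours in this order except CDKN1A and CDK6. CDKN1A ranged from 7.34 to 9.84 FPKM and CDK6 from 4.75 to 8.43, and CDKN1A was the higher of them in 3 of 6 libraries. CCND1 gave 86.2% to 91.1% of the summed D cyclin FPKM, and CDK4 gave 92.3% to 96.6% of the summed CDK4 and CDK6 FPKM. The ratio of the D cyclin sum to the CDK4 and CDK6 sum was 2.28 ± 0.706 in DMSO and 2.15 ± 0.558 in BDE209 (SD, n = 3), a difference smaller than the spread.

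**Figure D1:**
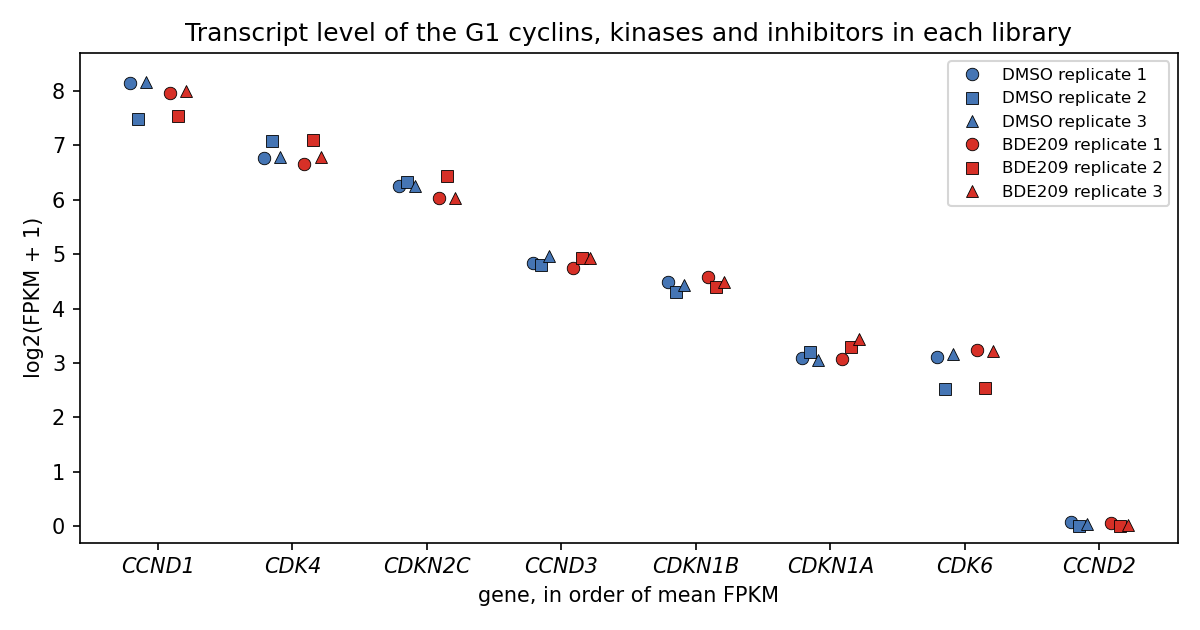
Level of the 8 genes with values on the log2(FPKM + 1) scale, 1 point per library, blue for DMSO and red for BDE209, with the shape giving the replicate number. CCND1 is highest and CCND2 lies at 0 to 0.05 FPKM; the squares of replicate 2 stand apart in CCND1, CDK4 and CDK6, in both groups.

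For 5 of the 7 tested genes (CDK6, CCND1, CDK4, CDKN2C and CDKN1B) both replicate 2 libraries together differed from the others by more than BDE209 differed from DMSO. The shift of replicate 2 against replicates 1 and 3, averaged over both groups on the log2(FPKM + 1) scale, was -0.66 for CDK6 and -0.56 for CCND1. It was 0.35 for CDK4 and 0.23 for CDKN2C, and between -0.15 and 0.08 for CCND3, CDKN1A and CDKN1B. Over all 11223 genes tested the quartiles of such shifts were -0.42 and 0.28. The shifts were taken on FPKM as deposited. The summed FPKM was 819086 and 829739 in the replicate 2 libraries of DMSO and BDE209, against 567810 to 596725 in the others. The sizes and signs of the shifts, those of CDK4 and CDKN2C included, therefore depend on the scaling, and shifts on a common sum were not computed. CDK6 and CCND1 also have the longest annotated transcripts of the 7 tested genes, at 11612 and 4307 nucleotides in GENCODE v29, against 2076 for CDK4; the part of transcript length in the shift was not tested. The pairs of equal number are therefore given one by one.

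Across all 6 libraries, no gene of the set differed between BDE209 and DMSO beyond the spread between replicates. Limma on log2(FPKM + 1) called 0 of the 7 tested genes, where 0% of all 11223 genes were called. At an unadjusted p under 0.05 limma counted 0 of the 7 and 1.57% of all genes (176). With the replicate number as a block it called 0 of the 7 and 0% of all genes, and at an unadjusted p under 0.05 counted 0 of the 7 and 16.5% of all genes. The BDE209 values overlapped the DMSO values in each of the 7, where 5.22% of all genes had groups that did not overlap. The largest differences were 0.14 for CDKN1A and -0.12 for CDKN2C, and the quartiles of all genes tested were -0.07 and 0.10. CDK6 and CDKN1B were higher in BDE209 in all 3 pairs, as were 21.9% of all genes, and none of the 7 was lower in all 3 pairs, as 17.3% of all genes were.

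**Figure D2:**
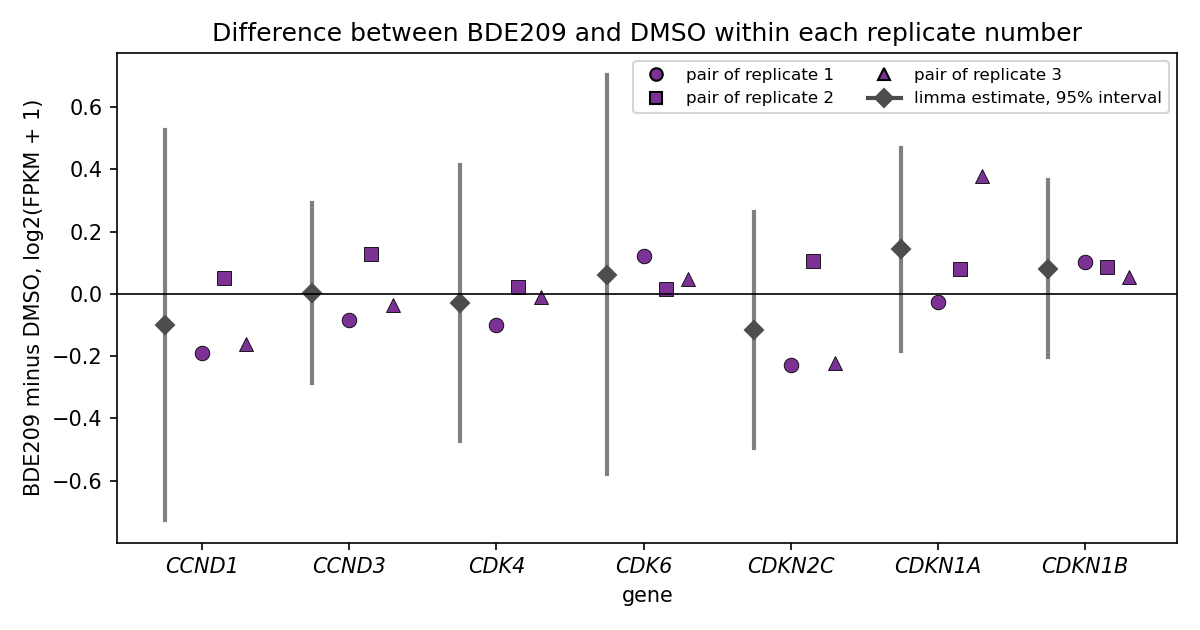
Differences of log2(FPKM + 1), BDE209 minus DMSO, for the 7 tested genes: purple points are the 3 pairs of equal replicate number, and the grey diamond with its bar is the limma estimate over all 6 libraries with its 95% interval. Each interval spans 0; CCND1 and CDKN2C lie below 0 in pairs 1 and 3 and above 0 in pair 2.

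CCND1 (ENSG00000110092) encodes cyclin D1, the D-type cyclin most often raised in epithelial tumours. In the order of the replicate numbers 1, 2 and 3, the DMSO libraries read 283.09, 177.77 and 285.90 FPKM and the BDE209 libraries 247.79, 184.18 and 255.46. The BDE209 libraries of replicates 1 and 3 lay below their DMSO partners and that of replicate 2 slightly above, while both replicate 2 libraries lay under all others, so the groups overlapped. The means were 249 ± 61.6 and 229 ± 39.1 FPKM (SD, n = 3), a log2 difference of -0.10 (95% interval -0.73 to 0.53; limma adjusted p = 1.00). The sign turned when any 1 of 3 libraries was left out, DMSO replicate 1 (0.0082), DMSO replicate 3 (0.02) or BDE209 replicate 2 (0.05).

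CCND3 (ENSG00000112576), cyclin D3, the D-type cyclin best known from lymphoid cells, was nearly level across the libraries. Its DMSO libraries read 27.50, 26.97 and 30.19 FPKM and its BDE209 libraries 25.87, 29.59 and 29.43. The means were 28.2 ± 1.73 and 28.3 ± 2.10 (SD, n = 3), with a log2 difference of 0.0029 (95% interval -0.29 to 0.29; limma adjusted p = 1.00). Its sign depended on the scaling, at -0.02 after median-of-ratios scaling, and was negative in replicates 1 and 3 alone (-0.06). Leaving out 1 library in turn gave -0.03 to 0.06, below 0 without DMSO replicate 1 or 2 or BDE209 replicate 2 or 3. CCND2 (ENSG00000118971), cyclin D2, was listed at 0.05, 0 and 0.03 FPKM with DMSO and at 0.04, 0 and 0.02 with BDE209. These values lie near the smallest that 2 decimals can show, and the exact permutation p was 0.8 (two-sided; 3 against 3 cannot go below 0.1).

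CDK4 (ENSG00000135446) encodes the kinase partner that was by far the more abundant of the pair here. Its DMSO libraries read 107.63, 134.80 and 109.66 FPKM and its BDE209 libraries 100.40, 136.87 and 108.94. Both replicate 2 libraries stood above the rest, and within each number the groups lay close together. The means were 117 ± 15.1 and 115 ± 19.1 (SD, n = 3), a log2 difference of -0.03 (95% interval -0.47 to 0.41; limma adjusted p = 1.00). It was 0.0070 after quantile normalisation, and without single libraries it ranged from -0.16 (BDE209 replicate 2 left out) to 0.07 (DMSO replicate 2 left out), and was also above 0 without BDE209 replicate 1 or 3. CDK6 (ENSG00000105810), the second kinase, read 7.67, 4.75 and 8.01 FPKM with DMSO and 8.43, 4.81 and 8.32 with BDE209. It was higher in BDE209 in each pair, by log2 differences of 0.12, 0.02 and 0.05, and its groups overlapped because replicate 2 was low in both. The log2 difference over the 6 libraries was 0.06 (95% interval -0.58 to 0.70; limma adjusted p = 1.00; 0.647 with the replicate number as a block), and it turned to -0.15 when DMSO replicate 2 was left out and reached 0.29 when BDE209 replicate 2 was. It was also negative without BDE209 replicate 1 (-0.06) or BDE209 replicate 3 (-0.05).

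CDKN2C (ENSG00000123080) encodes p18, an INK4 inhibitor that is itself a target of E2F in many cells. Its DMSO libraries read 75.61, 79.15 and 75.58 FPKM and its BDE209 libraries 64.39, 85.27 and 64.60. The 3 DMSO values lay within a narrow range, and the BDE209 values lay on either side of it, below in replicates 1 and 3 and above in replicate 2. The means were 76.8 ± 2.05 and 71.4 ± 12.0 (SD, n = 3), a log2 difference of -0.12 (95% interval -0.49 to 0.26; limma adjusted p = 1.00). The pair differences were -0.23, 0.11 and -0.22, a pattern of signs (lower in pairs 1 and 3, higher in pair 2) that CCND1, CCND3 and CDK4 shared and that 17.7% of all genes showed. The opposite pattern, shown by 15.7% of all genes, was seen in 0 of the 7. The signs alone were counted: the pair differences of CDK4 were -0.10, 0.02 and -0.0094, and those of CCND3 -0.09, 0.13 and -0.04. The sign of CDK4 in pair 3 thus rests on a very small difference. The ratio of CDKN2C to the summed CDK4 and CDK6 FPKM was 0.622 ± 0.0477 in DMSO and 0.582 ± 0.0270 in BDE209. Without BDE209 replicate 2 the log2 difference was -0.25, and without BDE209 replicate 1 or 3 it was -0.05.

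CDKN1A (ENSG00000124762) encodes p21, an inhibitor induced after DNA damage. Its DMSO libraries read 7.54, 8.24 and 7.34 FPKM and its BDE209 libraries 7.38, 8.76 and 9.84. BDE209 replicate 3 was the highest library and BDE209 replicate 1 lay within the DMSO range, so the groups overlapped. The means were 7.71 ± 0.473 and 8.66 ± 1.23 (SD, n = 3), a log2 difference of 0.14 (95% interval -0.18 to 0.47; limma adjusted p = 1.00), which was 0.06 without BDE209 replicate 3 and 0.24 without BDE209 replicate 1. CDKN1B (ENSG00000111276) encodes p27, which holds cyclin-CDK2 in check in resting cells. Its DMSO libraries read 21.39, 18.76 and 20.66 FPKM and its BDE209 libraries 23.03, 19.97 and 21.50. Each BDE209 library stood above its DMSO partner, by log2 differences of 0.10, 0.09 and 0.05, and the groups overlapped. The log2 difference was 0.08 (95% interval -0.20 to 0.37; limma adjusted p = 1.00; 0.477 with the block), and ranged from 0.03 (DMSO replicate 2 or BDE209 replicate 1 left out) to 0.13 (BDE209 replicate 2 left out). CDKN1B was 2.19 to 3.12 times as abundant as CDKN1A.

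**Figure D3:**
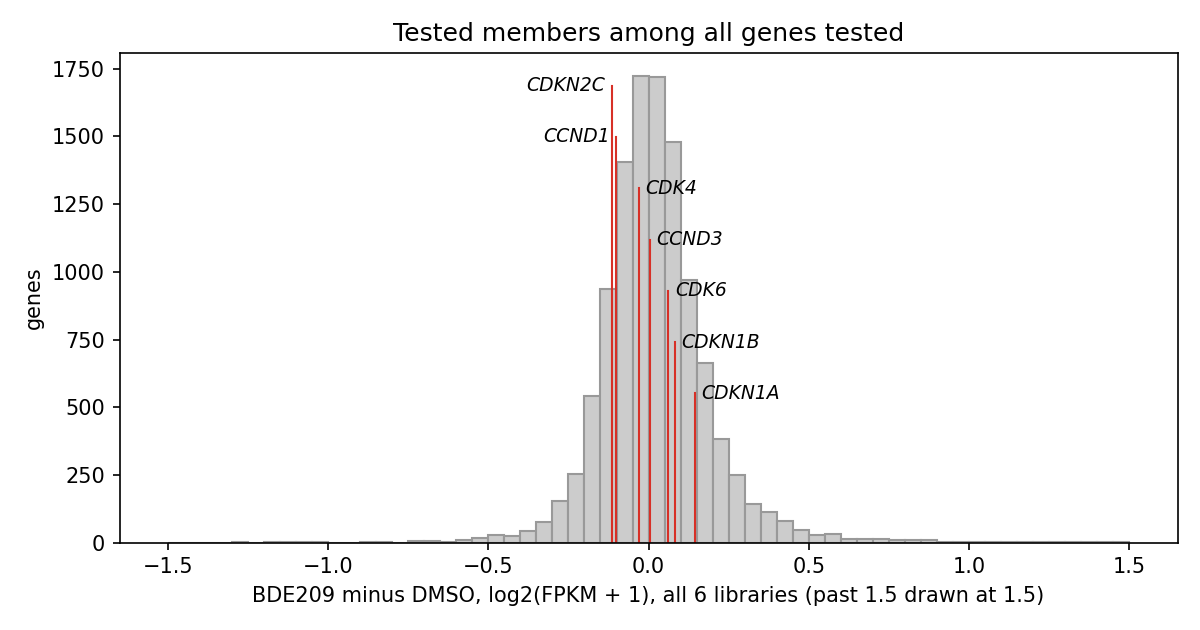
Differences between BDE209 and DMSO for the 11223 genes tested (grey bars, number of genes per step of the log2 difference) with the 7 tested genes marked by red lines, whose heights only separate the names. The 7 lie between -0.12 and 0.14, within the body of all genes.

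Because the replicate 2 libraries stood apart, the contrast was also fitted on replicates 1 and 3 alone. There limma called 0 of the 7 genes, where 6.81% of all genes were called, 4.47% higher and 2.33% lower. CCND1 differed by -0.18 (SE 0.0705; limma adjusted p = 0.202) and CDKN2C by -0.23 (SE 0.0685; limma adjusted p = 0.109). With the replicate number as a block on these 4 libraries, both were called lower, at limma adjusted p of 0.00193 and 0.00178. That fit has 1 residual degree of freedom per gene and called 28.0% of all genes, so 2 of 7 is near the share of all genes. The other 5 genes were not called in either fit, and CDKN1A came nearest, at 0.18 (limma adjusted p = 0.224 with the block).

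The BDE209 effect in replicate 2 was set against that in replicates 1 and 3 by a treatment term of its own, with 1 library a group there and the spread taken from replicates 1 and 3. The effect differed for CDKN2C, by 0.33 (SE 0.0800; limma adjusted p = 0.0202), and for CCND1, by 0.23 (SE 0.0657; limma adjusted p = 0.0462), higher in replicate 2 in both. These are 2 of the 7, and of all genes 10.3% passed this test. Both calls were lost after rescaling each library to a common sum (adjusted p = 0.0688 for CDKN2C and 0.142 for CCND1), after quantile normalisation (0.0980 and 0.326), without the filter (0.317 for both) and without limma's trend and robust options (0.170 and 0.281). The call of CCND1 was also lost with a pseudocount of 0.1 (0.0516) and after median-of-ratios scaling (0.0661). For the other 5 tested genes the adjusted p was 0.251 or higher.

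The wider G1 machinery was described from 9 lists, 83 genes with 81 tested. Across the 6 libraries limma called 0 of the 81, and 1 of them, E2F8, had an unadjusted p under 0.05. BDE209 values lay wholly below DMSO values in 4, CDC25A, E2F4, E2F8 and HSP90AA1, and wholly above in 1, E2F5, where 2.00% and 3.22% of all genes did so. In replicates 1 and 3 alone limma called 1 of the 81 higher and 3 lower, where 4.47% and 2.33% of all genes were called so. The 3 lower were CCNA2, HSP90AA1 and ID1, an inhibitor of basic helix-loop-helix factors. E2F5 and ID1 are named here after their values were seen. E2F5, another E2F that acts with pocket proteins, read 4.14 to 4.33 FPKM with DMSO and 4.42 to 4.82 with BDE209.

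Of the CDK inhibitors outside the chosen 10, CDKN2D, the INK4 protein p19, read 25.48, 26.23 and 25.62 FPKM with DMSO and 22.56, 28.20 and 20.56 with BDE209, which repeats the order of signs seen in CDKN2C, with a log2 difference of -0.12 (limma adjusted p = 1.00). CDKN1C, the CIP/KIP protein p57, read 1.71, 1.59 and 1.64 FPKM with DMSO and 2.21, 1.46 and 2.68 with BDE209, a log2 difference of 0.22 (limma adjusted p = 1.00). Both overlapped between groups because of replicate 2.

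Cyclins E and A with CDK2 act after cyclin D. The list of 8 had medians of -0.15, 0.0060 and -0.13 in pairs 1, 2 and 3, against 0.01, 0.02 and -0.00093 for all genes tested, and 0 of the 8 were called. CCNA2, cyclin A of S phase, read 69.39, 82.97 and 68.26 FPKM with DMSO and 54.15, 86.84 and 50.69 with BDE209, a log2 difference of -0.24 over all libraries. It was lower in replicates 1 and 3 alone (-0.39, limma adjusted p = 0.0261; 2.33% of all genes were called lower). CDC25A, the phosphatase that activates CDK2, ranged over 5.08 to 5.86 FPKM with DMSO and 4.53 to 4.88 with BDE209, a log2 difference of -0.17 with groups that did not overlap. CCNE1, cyclin E, differed by 0.16 and overlapped.

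RB and its relatives hold the E2F factors until the kinases act. The list of 13 had medians of 0.05, 0.02 and 0.02 in the 3 pairs, near those of all genes. E2F8, a repressor E2F, read 4.51, 4.46 and 4.68 FPKM with DMSO and 3.73, 3.77 and 3.22 with BDE209. It had the smallest p of the 81, with a log2 difference of -0.28 (SE 0.116; limma adjusted p = 1.00), and its groups did not overlap. E2F4, which represses with the pocket proteins, differed by -0.13, and RBL1, the pocket protein p107, by 0.11.

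CDK7, cyclin H (CCNH) and MNAT1 form the kinase that activates CDK4, and HSP90 with CDC37 folds it. The list of 6 had medians of -0.11, 0.04 and -0.09. HSP90AA1 read 470.05, 453.95 and 454.93 FPKM with DMSO and 380.78, 418.80 and 347.06 with BDE209, a log2 difference of -0.27 (limma adjusted p = 1.00), and was lower in replicates 1 and 3 alone (-0.35, adjusted p = 0.0491). CDK7 differed by 0.20 and CCNH by -0.10, each with overlapping groups. Of the 11 genes of cyclin D and inhibitor turnover, which tag these proteins for the proteasome, the medians were 0.04, 0.04 and -0.0069. There FBXO31, a ubiquitin ligase subunit for cyclin D1, differed by -0.10, SKP1, a shared ligase subunit, by 0.09 and GSK3B, the kinase that marks cyclin D1, by 0.07.

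Inducers of D cyclin transcription, 10 tested, had medians of 0.14, -0.08 and 0.14. JUNB, an AP-1 subunit, read 70.56, 69.44 and 77.99 FPKM with DMSO and 77.97, 80.45 and 94.60 with BDE209, higher in each pair, with a log2 difference of 0.21. MYC, a growth factor response gene, read 25.75 to 28.81 and 23.40 to 26.67, a log2 difference of -0.11. EGR1, an immediate early factor, differed by 0.24. Regulators of CDKN1A and CDKN1B, 8 tested, had medians of 0.12, -0.11 and 0.16. KLF6, a factor that can induce CDKN1A, differed by -0.24, FOXO4, which can induce CDKN1B, by 0.20 and MDM2, a ubiquitin ligase, by 0.10.

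Regulators of the CDKN2A and CDKN2B locus, 12 tested, had medians of 0.14, 0.01 and -0.02. SMAD3, a transducer of TGF-beta, differed by 0.19, the histone demethylases KDM6B by 0.31 and KDM2B by 0.14. ID1 read 367.83, 750.50 and 370.86 FPKM with DMSO and 261.99, 796.25 and 285.42 with BDE209, high in both replicate 2 libraries and lower with BDE209 in replicates 1 and 3 alone (-0.43, limma adjusted p = 0.0210). Proliferation markers, 11 tested, had medians of -0.06, 0.02 and -0.06. MKI67, which encodes the Ki-67 antigen of cycling cells, read 47.93, 36.73 and 50.19 FPKM with DMSO and 42.13, 30.98 and 39.84 with BDE209, lower in each pair, with a log2 difference of -0.25 (limma adjusted p = 1.00). MCM5 and MCM7, of the replicative helicase, differed by -0.09 and -0.07. The list was not of one sign: 3 of the 11 were higher in all 3 pairs, as were 21.9% of all genes tested. These were PCNA, MCM2 and MCM4, named after their values were seen, with log2 differences of 0.05, 0.04 and 0.06. Of the 11, 2 (MKI67 and MCM7) were lower in all 3 pairs, as were 17.3% of all genes tested.

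**Figure D4:**
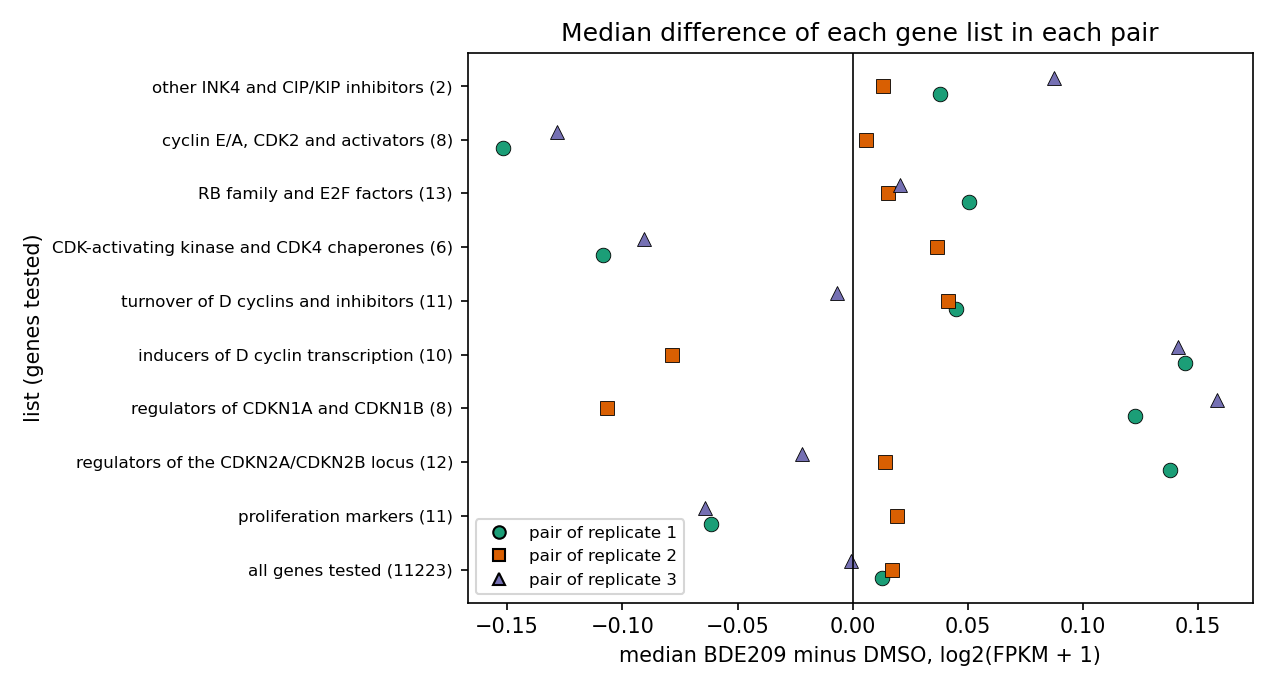
Median BDE209 minus DMSO difference of the 9 lists and of all genes tested, on the log2(FPKM + 1) scale, 1 point per pair of equal replicate number. The list of cyclin E, cyclin A and CDK2 lies at -0.15 and -0.13 in pairs 1 and 3 and near 0 in pair 2; all genes tested lie near 0 in each pair.

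As a description over the 6 libraries, the genes whose log2(FPKM + 1) followed each tested gene most closely were FAM120A and CRYBG1 for CCND1 (Pearson r 0.9991 and 0.999), EVA1B and ZNF771 for CCND3 (0.975 and 0.9629), and WBP4 for CDK4 (0.9981). They were MLEC and PDPR for CDK6 (0.9998 and 0.9997), NPTN and BPGM for CDKN2C (0.9961 and 0.9928), SOX17 and ALG9 for CDKN1A (0.9526 and 0.9451) and MAP1LC3B and TRAM1 for CDKN1B (0.9962 and 0.9948). The 6 points share 3 replicate numbers, and for CCND1, CDK4 and CDK6 the replicate 2 libraries set most of the range.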

How the data were processed

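RNA sequencing values of 6 libraries were used, 3 per group, grouped and numbered by their titles. The authors deposited 1 FPKM value per gene and library, to 2 decimals, per the file headers. Bowtie 0.12.2, RSEM and Bowtie2 are named as tools, per the submitters' processing notes, with mm8 and mm10 as builds. Those are mouse builds, while the identifiers are human. A human build and the use of strand were not given in the sources used here. Of 16614 rows, 40 with repeated identifiers were left out. Symbols came from a table of Ensembl identifiers (16535 matched).

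Limma 3.58.1 (R 4.3.3, trend and robust) was run on log2(FPKM + 1) over the 11223 genes with at least 1 FPKM in 3 or more libraries, without a block, with Benjamini-Hochberg adjustment over all of them and a threshold of 0.05. Differences are BDE209 minus DMSO and understate the change of low genes. CCND2, under the filter, was tested by exact permutation over the 20 arrangements of the libraries. The fits were tested on simulated data. Deviations from the group means correlated at 0.738, 0.875 and 0.824 between the libraries of replicates 1, 2 and 3. Libraries of unlike number were not compared. Both replicate 2 libraries stood apart, which moves the deviations of replicates 1 and 3 together, so these values cannot show that the numbers pair the samples. The labels do not say what a number shares. Alternatives were the block, pseudocount, filter, scaling, limma options, replicates 1 and 3 alone and each library left out.

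Members and lists were chosen with earlier results of these data known. Named were all members, up to 3 genes per list with the smallest p, and the 2 genes most like each member. A few genes that this rule or the lists hold are not reported here. Promoter sequences and gene order are from RefSeq (GRCh38.p14), transcript lengths from GENCODE v29. Gene coordinates are not given, as no human build is named.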

Additional observations from a re-analysis of the deposited data

Results flagged for a closer look

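The BDE209 effect differed between replicate 2 and replicates 1 and 3, by the limma term described in the report, in 6 of the named genes, where 10.3% of all genes tested passed. The difference, replicate 2 minus the others on the log2(FPKM + 1) scale, was 0.52 for ID1 (adjusted p = 0.000391), 0.45 for CCNA2 (adjusted p = 0.00457), 0.33 for CDKN2C (0.0202), 0.23 for HSP90AA1 (0.0399), 0.23 for CCND1 (0.0462) and -0.35 for SMAD3 (0.0424). Apart from the members, the named genes were picked by the smallest p in their list, and ID1 and E2F5 after their values were seen. The count of 6 is therefore not a share that can be set against that of all genes. Other genes of the lists, not named here, passed as well. Replicate 2 holds 1 library a group, and the part of its shift against the other replicates in these differences was not tested.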

How the results depend on the processing

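With a replicate block, the counts of called genes over all genes, the 7 tested members and the 81 pathway genes stayed at 0, and the block changed no call of a named gene. In replicates 1 and 3 alone 764 genes and 4 pathway genes were called, and with the replicate block on those libraries 3146 genes, 2 members (CCND1 and CDKN2C, whose differences there were -0.18 and -0.23) and 27 pathway genes. Leaving out 1 library in turn gave 0 to 1 called genes. The test of replicate 2 against the others called 1153 genes, and 0 without a filter, 711 after rescaling to a common sum, 640 after quantile normalisation and 153 without trend and robust options. Among the members it called 2, and 1 with a pseudocount of 0.1 or median-of-ratios scaling, and 0 without a filter, after rescaling to a common sum, after quantile normalisation and without trend and robust options. The causes were not tested.

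Among the members and the genes picked by the smallest p in their list, signs turned in these cases, none of them called. The genes named outside that rule, ID1, E2F5, PCNA, MCM2 and MCM4, were not read with single libraries left out. CCND3 was -0.021 after median-of-ratios scaling, -0.0024 after quantile normalisation and -0.060 in replicates 1 and 3 alone, with or without the replicate block. CDK4 was 0.0070 after quantile normalisation. Leaving out 1 library in turn gave -0.33 to 0.048 for CCND1, -0.030 to 0.064 for CCND3, -0.16 to 0.074 for CDK4, -0.15 to 0.29 for CDK6, -0.34 to 0.068 for CCNH, -0.10 to 0.60 for EGR1, -0.25 to 0.070 for FBXO31, -0.058 to 0.20 for GSK3B, -0.20 to 0.014 for MCM5 and -0.076 to 0.19 for SKP1. CDKN1A, CDKN1B and CDKN2C kept their sign under each alternative run. Depth is not known in fragments, so the precision of CCND2 and other low genes is not known either.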

Other observations

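CDKN2A and CDKN2B had no match among the genes analysed. The protein-coding genes with values that lie nearest to them in RefSeq order were chosen after their values were seen. MTAP, the next gene before CDKN2A and an enzyme of methionine salvage made in most tissues, was listed at 0.01, 0.01 and 0 FPKM in DMSO replicates 1, 2 and 3 and at 0 in the 3 BDE209 libraries. DMRTA1, the next gene after CDKN2B, was listed at 0 to 0.03 FPKM, and ELAVL2, the following one, at 0 to 0.03. Of the 16574 genes, 518 (3.13%) were at or under 0.01 FPKM in every library. The cause was not tested.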
